A study of Mus musculus with 4 samples.

Results

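The 10 genes described here encode the NF-kB transcription factor subunits and the proteins that hold them in check. The subunits are Nfkb1, Nfkb2, Rel, Rela and Relb, the inhibitors of the IkB family are Nfkbia, Nfkbib, Nfkbie and Nfkbiz, and Tnfaip3 encodes the deubiquitinase A20. They were chosen by name from the 31829 gene names on the array, and 14 of the 39429 probes carry one of these names. Of the 10 genes, 9 were measured on all 4 arrays, as were 16538 genes in all, and Rel was well above background on none.

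RNA came from mouse embryonic fibroblasts (MEFs), cells of the connective tissue grown in culture from mouse embryos. The 4 conditions were WT (p53+/+) and p53-/- MEFs, each left untreated or given doxorubicin, a drug that damages DNA by trapping topoisomerase II. The design asks which genes respond to DNA damage with and without the tumor suppressor p53. Each condition was 1 single-color array and the 4 arrays were on 1 slide, so there is no spread between replicates, no p-value is given, and the position of an array on the slide and its condition cannot be told apart. The p53-/- MEFs carry the null genotype by label, the WT MEFs being their controls. The sources used here do not say how many cultures or embryos each RNA came from, nor the dose and duration of doxorubicin for the arrays.

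The labels were first checked on Trp53 itself. Levels are given throughout as a percent of the 75th percentile of the signals of the same array, in the order WT MEFs without and with doxorubicin, then p53-/- MEFs without and with doxorubicin. Probes differ in brightness for reasons other than RNA amount, so levels are compared between arrays and not between genes. Trp53 stood at 59.2, 189, 23.5 and 22.4%, lowest on both p53-/- arrays (the place of the probe relative to the deletion was not analysed here). Mdm2, the ubiquitin ligase that p53 induces and that degrades p53, stood at 2521, 10067, 726 and 1003%. The pro-apoptotic p53 target Bax stood at 1271, 2733, 648 and 515%. Both rose with doxorubicin in WT MEFs (3.99-fold and 2.15-fold) and were under 2-fold in p53-/- MEFs (log2 ratios of 0.47 and -0.33). Cdkn1a, the cyclin-dependent kinase inhibitor p21, was far lower in p53-/- MEFs but rose in both genotypes (1380, 5828, 51.9 and 244%).

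NF-kB is a family of dimers of Rel-domain proteins. In resting cells IkB proteins mask the dimers and keep them in the cytoplasm. In the canonical arm the IKK complex phosphorylates IkBα (the product of Nfkbia), which is degraded and frees RelA and p50 dimers, and in the non-canonical arm the p100 precursor encoded by Nfkb2 is cut to p52, which pairs with RelB. Several of the inhibitor genes are themselves NF-kB target genes, which makes them feedback inhibitors, and DNA double-strand breaks can activate the canonical arm through ATM and the IKK subunit NEMO.

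To show the sequence next to the start of these genes, the promoter windows of RefSeq (GRCm38.p6, from 250 bases before to 50 bases after each transcription start) were searched on both strands for the kappaB consensus, a word of 10 bases that reads 3 G, 1 purine, any 2 bases, 2 pyrimidines and 2 C. Overlapping matches were merged. RefSeq windows were matched for 7 of the 10 genes and not for Nfkb1, Relb and Nfkbiz. A match was present for 5 of these 7 genes (Nfkb2, Nfkbia, Nfkbie, Rel and Tnfaip3) and for 2581 of 27025 genes in all (9.55%). Counted over windows, since Nfkb2 has 3 starts and Tnfaip3 has 2, it was 7 of 10 windows against 2779 of 32851 (8.46%). Starts are numbered by rising coordinate on the chromosome, so for Tnfaip3, on the minus strand, the second start lies upstream of the first. The windows of the second and the third start of Nfkb2 overlap and hold 1 match in common. No match was present in the windows of Nfkbib and Rela, nor in that of the first start of Tnfaip3. The 130 bases before the start are printed here, 5′ to 3′ on the strand of the gene, for the inhibitor genes and the subunit gene with the largest ratios to doxorubicin, with the matches in capitals. For Nfkb2 and Tnfaip3 the start shown is the only one with matches in these 130 bases. Since these genes were picked by their ratios, nothing about the response is read from the matches.
Nfkbia, chr12:55492648-55492777, minus strand: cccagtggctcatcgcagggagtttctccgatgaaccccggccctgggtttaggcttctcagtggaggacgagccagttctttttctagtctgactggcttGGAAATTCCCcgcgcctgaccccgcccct
Nfkb2 (the first of its starts), chr19:46304607-46304736, plus strand: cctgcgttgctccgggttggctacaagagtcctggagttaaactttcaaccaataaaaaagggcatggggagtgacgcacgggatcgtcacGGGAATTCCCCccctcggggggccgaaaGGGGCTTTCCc
Nfkbie, chr17:45555570-45555699, plus strand: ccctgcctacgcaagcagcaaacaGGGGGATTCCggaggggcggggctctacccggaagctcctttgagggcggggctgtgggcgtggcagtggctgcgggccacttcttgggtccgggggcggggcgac
Tnfaip3 (the second of its starts), chr10:19015411-19015540, minus strand: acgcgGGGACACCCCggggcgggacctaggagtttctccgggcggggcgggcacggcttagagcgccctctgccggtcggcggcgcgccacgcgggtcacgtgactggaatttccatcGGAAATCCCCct

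A match is a description of letters and not a binding site, and binding was not measured in these samples.

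**Figure D1:**
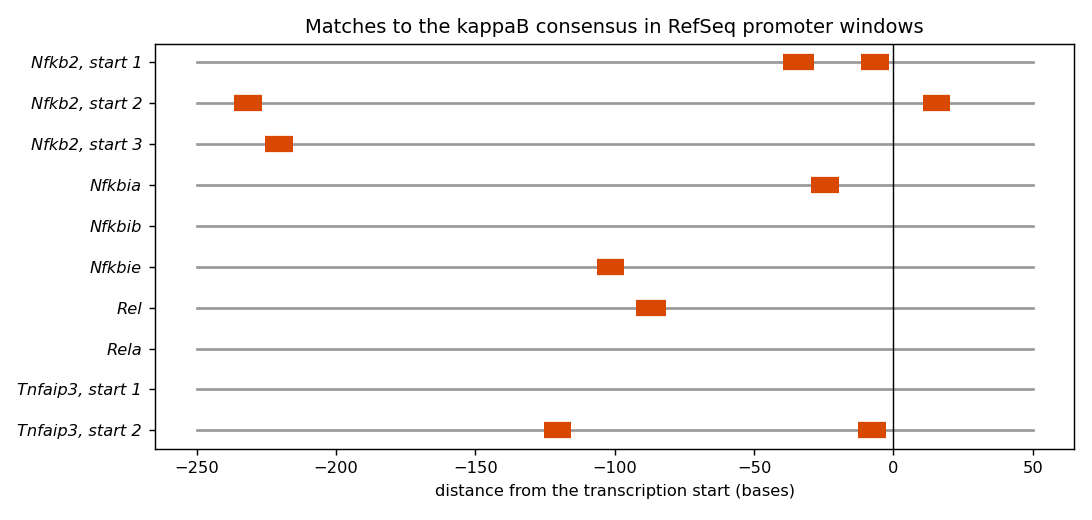
Matches to the kappaB consensus (orange blocks) in the RefSeq promoter windows of 7 NF-kB genes, placed by distance in bases from the transcription start (vertical line), with 1 grey line per window. The match of Nfkbia lies at -29 to -20, that of Nfkbie at -106 to -97, and the windows of Nfkbib, Rela and the first start of Tnfaip3 are empty.

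With doxorubicin, 5 of the 9 measured genes rose at least 2-fold in p53-/- MEFs and 1 of 9 did in WT MEFs. In p53-/- MEFs Tnfaip3 rose 12-fold, Nfkbie 8.09-fold, Nfkb2 4.03-fold, Nfkbia 3.72-fold and Relb 3.23-fold. In WT MEFs Tnfaip3 rose 6.49-fold and the other 8 genes moved less than 2-fold. None of the 9 fell 2-fold in either genotype. Across all genes measured in the same comparison, the same threshold was passed upward by 9.24% and downward by 6.89% in p53-/- MEFs, and by 11.0% and 10.4% in WT MEFs. The median log2 ratio of the 9 genes was 1.69 in p53-/- MEFs, where that of all genes was 0.00. In WT MEFs it was 0.24 beside 0.01 for all genes, and -0.04 when arrays were scaled to their medians. The genes were not drawn at random, and these counts and medians carry no test.

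**Figure D2:**
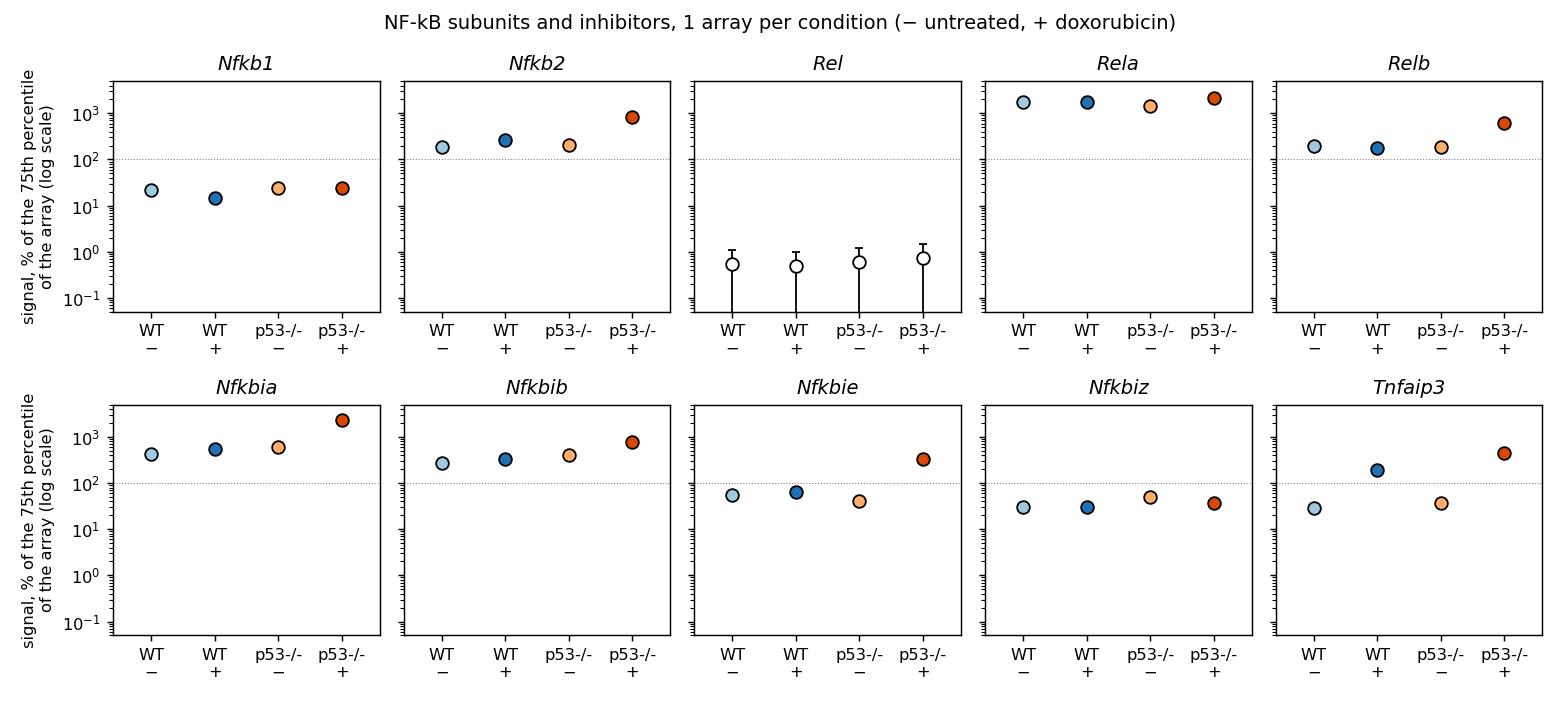
Level of each of the 10 genes on each of the 4 arrays as a percent of the array's 75th percentile (log axis, dotted line at 100%), with untreated arrays marked - and doxorubicin arrays marked +, open symbols for signals not well above background and bars for the measurement error of the scanner software, which is smaller than the filled symbols and runs below the axis for Rel. Nfkb2, Relb, Nfkbia and Nfkbie stand apart on the doxorubicin-treated p53-/- array (842, 615, 2300 and 330%), and Tnfaip3 is high on both doxorubicin arrays (192 and 445%).

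The measured subunit genes of the canonical arm stayed under 2-fold in both genotypes. Rela encodes RelA (p65), the subunit with the strong activation domain. Its level was 1737, 1785, 1432 and 2197%, so the 4 arrays lay within 0.62 on the log2 scale. The log2 ratio to doxorubicin was 0.04 in WT and 0.62 in p53-/- MEFs, each with an error of 0.20 computed from the error that the scanner software gives each spot. The WT value was -0.24 when arrays were scaled to their medians. The probe lies at chr19:5648070-5648129 (mm9, the build of the files).

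Nfkb1 encodes p105, the precursor of p50 and itself an IkB protein. Its brighter probe (mm9, chr3:135254550-135254609) read 22.2, 14.6, 24.2 and 23.6%. The treated WT array was the low one and the other 3 arrays were within 0.13 of each other on the log2 scale. The log2 ratio was -0.60 in WT and -0.04 in p53-/- MEFs (error 0.22). A second Nfkb1 probe read 23.5, 14.4, 19.5 and 18.8%, with log2 ratios of -0.71 and -0.05. The probes agreed that the treated WT array was lowest, and they differed in sign for untreated p53-/- against untreated WT MEFs (0.13 and -0.27).

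Rel encodes c-Rel, the subunit best known in lymphocytes. Its deposited signals were 11.45, 8.891, 11.32 and 17.49, and the software's error was about as large as each of them (11.4, 8.85, 11.3 and 17.4). No ratio is given for Rel. The position that the files give for this probe spans 15 bases of the 60 in a probe.

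The subunit genes of the non-canonical arm were high on 1 array. Nfkb2 encodes p100, which acts as an inhibitor while uncut and gives the subunit p52 when cut. It stood at 187, 261, 209 and 842%. The treated p53-/- array was the highest and the other 3 lay within 0.49 on the log2 scale. The log2 ratio to doxorubicin was 2.01 in p53-/- MEFs and 0.49 in WT MEFs (error 0.20 for both), and 333 of 16981 genes had a higher ratio than Nfkb2 in p53-/- MEFs. The Nfkb2 probe covers 140 bases of chromosome 19 (mm9, chr19:46386146-46386285) with its 60 bases, so that it crosses a gap in the genome, as the probe of a spliced transcript does. Its sequence is given because this single probe carries the value.
Nfkb2 probe: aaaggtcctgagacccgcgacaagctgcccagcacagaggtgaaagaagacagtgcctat

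Relb encodes RelB, the usual partner of p52. Its brighter probe (mm9, chr7:20191722-20191781) read 197, 180, 190 and 615%. The treated p53-/- array lay 1.64 above the next on the log2 scale, and the other 3 arrays were within 0.13. The log2 ratio was 1.69 in p53-/- and -0.13 in WT MEFs (error 0.20). A second probe, which overlaps the first, gave 1.78 and -0.05.

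Of the 4 IkB genes, Nfkbie had the largest ratio in p53-/- MEFs. Nfkbie encodes IkBε, a cytoplasmic inhibitor that binds RelA and c-Rel dimers. Its probe (mm9, chr17:45700000-45700059) read 54.4, 64.1, 40.8 and 330%. The treated p53-/- array lay 2.37 above the next on the log2 scale, and the gaps between the other 3 arrays were 0.42 and 0.24. The log2 ratio was 3.02 in p53-/- MEFs (error 0.21), a value passed by 91 of 16981 genes. In WT MEFs it was 0.24, within reach of the error of 0.21, and -0.04 when arrays were scaled to their medians.

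Nfkbia encodes IkBα, the inhibitor that is degraded and resynthesized within a round of canonical signaling. It stood at 431, 560, 619 and 2300%. The log2 ratio to doxorubicin was 1.89 in p53-/- MEFs and 0.38 in WT MEFs (error 0.20), and untreated p53-/- MEFs were 0.52 above untreated WT MEFs. The treated p53-/- array was the highest, 1.89 above the next. The probe covers 496 bases of chromosome 12 (mm9, chr12:56590945-56591440) and so also crosses a gap, and its sequence is given for the same reason.
Nfkbia probe: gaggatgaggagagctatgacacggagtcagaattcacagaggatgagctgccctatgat

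Nfkbib encodes IkBβ, which is degraded more slowly than IkBα. Its brightest probe (mm9, chr7:29544160-29544219) read 270, 340, 409 and 769%, and its log2 ratio was 0.33 in WT MEFs and 0.91 in p53-/- MEFs (error 0.20). The 3 Nfkbib probes disagreed on the call in p53-/- MEFs. A second probe, which crosses a gap (mm9, chr7:29545252-29546647), read 62.3, 67.7, 87.0 and 194% and passed 2-fold with a log2 ratio of 1.16. The dimmest probe read 7.34, 6.86, 7.36 and 11.4%, a log2 ratio of 0.64. Its signal on the untreated p53-/- array (138.4) was below the brightest negative control spot there (250.1). All 3 probes were highest on the treated p53-/- array.
Nfkbib, second probe: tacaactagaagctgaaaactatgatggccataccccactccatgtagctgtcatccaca

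Nfkbiz encodes IkBζ, a nuclear IkB protein that acts as a cofactor on a subset of NF-kB target genes. Its probe (mm9, chr16:55817859-55817918) read 30.0, 30.9, 51.1 and 37.4%. It was highest in untreated p53-/- MEFs, and the 2 WT arrays were within 0.04 of each other on the log2 scale. The log2 ratio was 0.04 in WT and -0.45 in p53-/- MEFs (error 0.21), and of the 9 measured genes it was the only one with a higher ratio in WT MEFs, by 0.49.

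Tnfaip3 encodes A20, which removes or edits ubiquitin chains on RIPK1 and other signaling proteins upstream of IKK. Its probe (mm9, chr10:18720776-18720835) read 29.5, 192, 37.2 and 445%. Both treated arrays were above both untreated ones, and the treated p53-/- array was the highest. The log2 ratio was 2.70 in WT and 3.58 in p53-/- MEFs (error 0.21), with 259 of 17546 genes above it in WT and 48 of 16981 in p53-/- MEFs. Its range over the 4 arrays, 3.91 on the log2 scale, was the widest of the 9 measured genes.

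Compared with untreated WT MEFs, none of the 9 measured genes was 2-fold higher or lower in untreated p53-/- MEFs. Of all genes, 2.15% were 2-fold higher and 2.62% lower. The ratios ran from -0.42 for Nfkbie to 0.77 for Nfkbiz with a median of 0.16. Under doxorubicin the genotypes stood apart. In treated p53-/- against treated WT MEFs, 6 of the 9 genes were at least 2-fold higher and 0 lower, with 11.9% and 10.3% of all genes so placed. Nfkbie was 5.15-fold higher, Nfkbia 4.11-fold, Relb 3.41-fold, Nfkb2 3.22-fold, Tnfaip3 2.32-fold and Nfkbib 2.26-fold, though the dimmest Nfkbib probe gave 1.67-fold. Nfkb1, Rela and Nfkbiz differed by less than 2-fold (log2 ratios of 0.69, 0.30 and 0.27).

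The difference of the responses (the log2 ratio in WT minus that in p53-/- MEFs) was -2.78 for Nfkbie, -1.82 for Relb, -1.53 for Nfkb2 and -1.51 for Nfkbia. For Tnfaip3, which rose in both genotypes, it was -0.88. For Rela, Nfkbib and Nfkb1 it was -0.58, -0.58 and -0.56. A lower difference than that of Nfkbie was found for 174 of 16538 genes, and a lower one than that of Relb for 542. These differences were not tested, and the same 4 arrays enter the comparisons of treatment and of genotype.

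**Figure D3:**
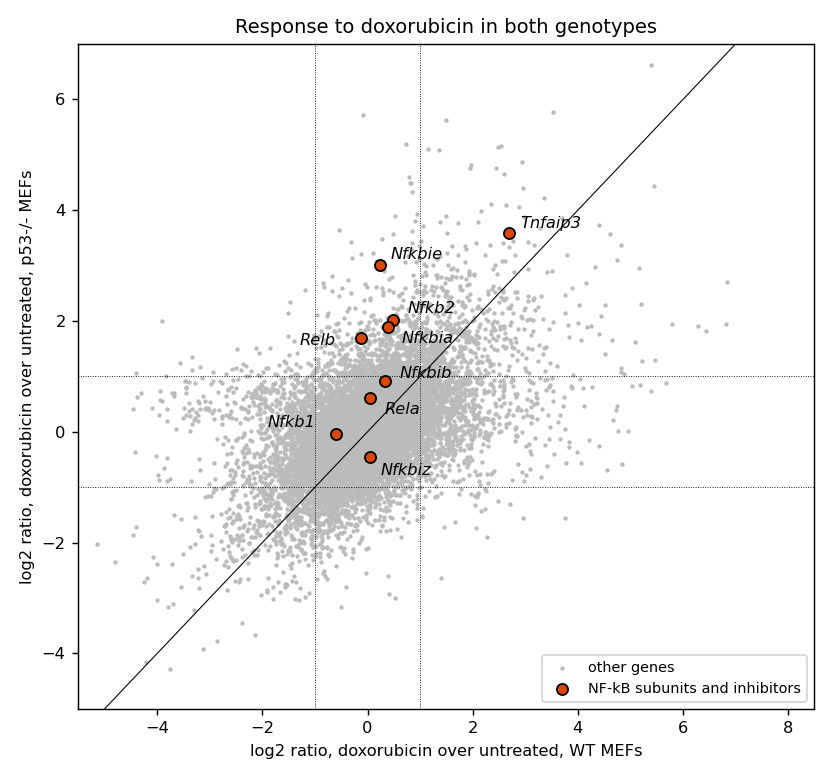
Log2 ratio of doxorubicin-treated over untreated MEFs in WT (x axis) and p53-/- MEFs (y axis) for the genes measured on all 4 arrays, with the 9 NF-kB genes in orange, the line of equal response, and dotted lines at 2-fold. Nfkbie (0.24 and 3.02), Relb (-0.13 and 1.69), Nfkb2 (0.49 and 2.01) and Nfkbia (0.38 and 1.89) lie above the line and between the vertical dotted lines, and Tnfaip3 (2.70 and 3.58) is high on both axes.

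The pattern of Tnfaip3 over the 4 arrays was compared with that of 16537 other genes by the Euclidean distance between log2 levels centred on each gene's mean. The nearest were LOC100044403 (distance 0.22), Pou3f1 (0.29), Rasgef1a (0.35), Als2cr12 (0.37) and LOC100044952 (0.43). Pou3f1, a POU-domain transcription factor, stood at 10.7, 83.8, 13.0 and 191%. Of the NF-kB genes, Nfkbie was nearest at 1.80 and ranked 324, followed by Nfkb2 (1.92, rank 404) and Nfkbia (2.09, rank 584). Over 4 arrays many genes share such a pattern, and no shared control is read from it.

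Upstream of IKK, 26 receptor and adaptor genes were listed and 25 were measured. With doxorubicin 7 of the 25 rose in p53-/- MEFs and 0 fell (median log2 ratio 0.52). In WT MEFs 2 rose and 2 fell (median -0.02). Of all genes, 9.24% rose 2-fold and 6.89% fell in p53-/- MEFs, and 11.0% and 10.4% did in WT MEFs. Traf1, an adaptor of TNF receptor 2 and itself a known NF-kB target, stood at 9.62, 5.33, 14.2 and 91.5%, so it rose 6.46-fold in p53-/- MEFs beside a log2 ratio of -0.85 in WT MEFs. Cd40, a receptor that signals through both arms, stood at 51.2, 79.4, 23.3 and 112%. Its rise of 4.83-fold in p53-/- MEFs started from a lower untreated level. The lipopolysaccharide receptor gene Tlr4 (41.1, 52.0, 19.6 and 66.7%) and the lipopeptide receptor gene Tlr2 (21.7, 25.9, 14.2 and 39.6%) also rose from a lower untreated level, by 1.77 and 1.48 on the log2 scale in p53-/- MEFs. Birc3, the ubiquitin ligase cIAP2, rose in p53-/- MEFs (1.21) and had a log2 ratio of -0.73 in WT MEFs. In WT MEFs the genes that rose were Myd88, the adaptor of Toll-like and interleukin-1 receptors (1.16), and the TWEAK receptor gene Tnfrsf12a (1.07), and those that fell were the receptor genes Tnfrsf1b (-1.36) and Il1r1 (-1.02).

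All 11 listed kinase genes and kinase subunits were measured. With doxorubicin 1 rose in p53-/- MEFs and 2 in WT MEFs, 0 fell in either, and the median log2 ratios were 0.35 and 0.22. Of all genes, 9.24% rose 2-fold in p53-/- MEFs and 11.0% in WT MEFs, and 6.89% and 10.4% fell. Map3k8, the kinase Tpl2 that p105 binds, rose in p53-/- MEFs with a log2 ratio of 1.17 and had -0.08 in WT MEFs. Map3k14, the kinase NIK that starts the non-canonical arm, stood at 144, 134, 153 and 248% (log2 ratios of -0.10 and 0.70). A second, dimmer Map3k14 probe gave 0.10 and -0.02, and its untreated p53-/- signal (181) was below the brightest negative control spot there (250.1). In WT MEFs Ikbkg, which encodes NEMO, had a log2 ratio of 1.02, and 0.65 in p53-/- MEFs. A second Ikbkg probe gave 0.90 and 0.81, so the probes disagree on the 2-fold call in WT MEFs. The untreated p53-/- signal of this second probe (142) was also below the brightest negative control spot. Ikbke, an IKK-related kinase of the interferon response, was high on the treated WT array. It stood at 8.82, 43.1, 6.45 and 7.61%, a log2 ratio of 2.29 in WT and 0.24 in p53-/- MEFs. The untreated p53-/- signal of Ikbke (121) was below the brightest negative control spot of its array (250.1).

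Of 8 genes known to carry the DNA damage signal to NF-kB, 2 rose and 1 fell in WT MEFs and 0 moved 2-fold in p53-/- MEFs (medians 0.18 and 0.11). The shares of all genes that rose and fell 2-fold were 11.0% and 10.4% in WT MEFs, and 9.24% and 6.89% in p53-/- MEFs. Ikbkg, Ripk1 and Map3k7 also stand in the lists above. Pidd1, which scaffolds RIPK1 and NEMO after DNA damage and is also a p53 target, stood at 61.9, 327, 32.3 and 33.7%. It rose in WT MEFs, and Ikbkg is counted with it by its brighter probe. Parp1, the poly(ADP-ribose) polymerase, fell in WT MEFs (98.3, 33.1, 168 and 133%, a log2 ratio of -1.57). Atm, the kinase that starts this signal, had log2 ratios of -0.85 and -0.13 (-0.47 and 0.15 by a second probe), and the SUMO ligase gene Pias4 had 0.27 and 0.30.

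A list of 20 other regulators held inhibitors of the pathway and also Sharpin, Rnf31 and Rbck1, the subunits of the LUBAC ubiquitin ligase, which activates it and whose 3 genes moved less than 2-fold. Of this list 19 were measured, of which 4 rose and 1 fell in p53-/- MEFs and 1 rose and 1 fell in WT MEFs (medians 0.20 and 0.00). The shares of all genes that rose and fell 2-fold were 9.24% and 6.89% in p53-/- MEFs, and 11.0% and 10.4% in WT MEFs. Nfkbid, another nuclear IkB gene, stood at 24.6, 13.9, 32.0 and 196%, a rise of 6.12-fold in p53-/- MEFs and a log2 ratio of -0.82 in WT MEFs. Zc3h12a, the RNase Regnase-1, had log2 ratios of 2.12 in p53-/- and 0.53 in WT MEFs, and its signal of 79.1 on the untreated p53-/- array did not reach the brightest negative control spot there (250.1). Socs1, a cytokine signaling inhibitor, had 1.41 and 0.00. Cyld, the deubiquitinase, rose in both genotypes (1.14 in p53-/- and 1.02 in WT MEFs). Bcl3, a nuclear IkB protein that partners p50 and p52, fell in WT MEFs (267, 67.7, 266 and 379%, with a log2 ratio of -1.98 there and 0.51 in p53-/- MEFs). The gene that fell in p53-/- MEFs was Commd1 (-1.07), named here after its value was seen.

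Known NF-kB target genes formed the longest list. Of 45 listed, 44 were matched to a probe and 32 were measured in each genotype with doxorubicin. In p53-/- MEFs 17 rose and 0 fell (median log2 ratio 1.09), and in WT MEFs 7 rose and 3 fell (median 0.27). Of all genes, 9.24% rose 2-fold and 6.89% fell in p53-/- MEFs, and 11.0% and 10.4% did in WT MEFs. Cxcl10, an interferon- and NF-kB-induced chemokine, stood at 25.0, 44.6, 90.1 and 2035%. The cytokine gene Il6 stood at 24.8, 35.7, 33.6 and 502%. The neutrophil chemokine gene Cxcl1 stood at 10.2, 21.2, 14.5 and 191%. All 3 were highest on the treated p53-/- array, with rises of 22.6-, 14.9- and 13.2-fold there and log2 ratios of 0.83, 0.52 and 1.06 in WT MEFs. Icam1, the adhesion molecule, and Psmb9, an immunoproteasome subunit, rose in both genotypes (log2 ratios of 2.46 and 2.84 for Icam1, 3.79 and 3.19 for Psmb9, in WT and p53-/- MEFs). On the untreated p53-/- array the signals of Icam1 and Psmb9 (95.6 and 99.5) did not reach that negative control spot either. The chemokine gene Cxcl5 and the alarmin gene Il33 fell in WT MEFs (-3.90 and -3.34) and had 2.01 and 0.14 in p53-/- MEFs. The Cxcl5 signal in treated WT MEFs (49.4) was below the brightest negative control spot there (77.46).

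**Figure D4:**
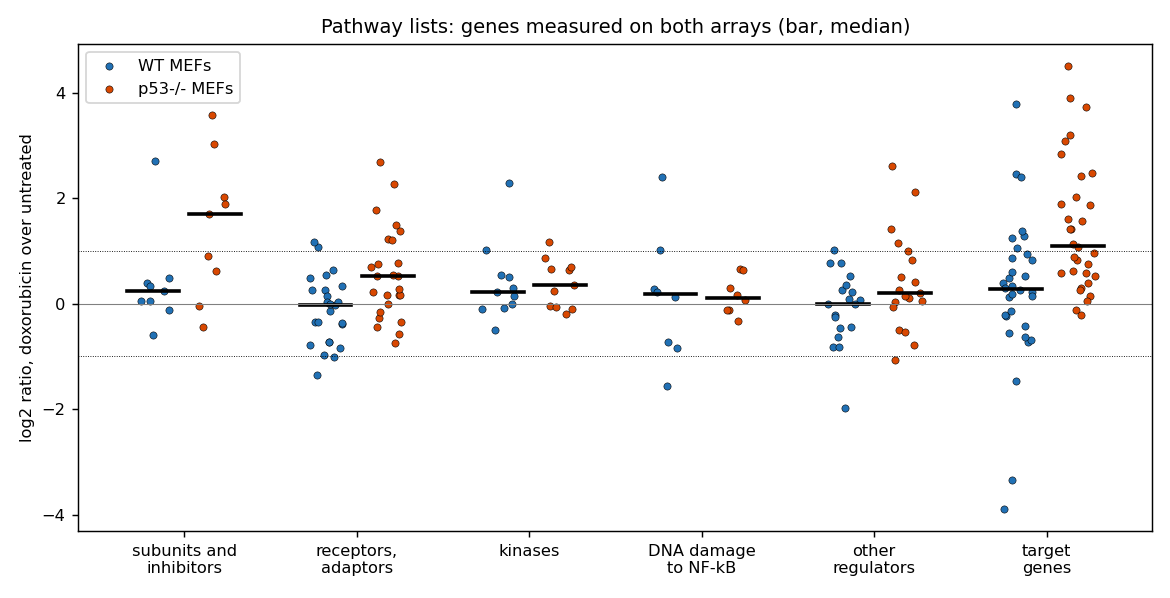
Log2 ratio of doxorubicin-treated over untreated MEFs for each measured gene of 6 lists of the NF-kB pathway, in WT (blue) and p53-/- MEFs (orange), with bars at the medians and dotted lines at 2-fold. The medians of the target genes are 0.27 in WT and 1.09 in p53-/- MEFs, those of the kinases 0.22 and 0.35, and those of the genes from DNA damage to NF-kB 0.18 and 0.11.

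Il1a, Ifnb1, Cxcl2 and Tlr3 were well above background in treated p53-/- MEFs and on no other array, a set picked after the values were seen. The interleukin gene Il1a had signals of 11.7, 9.03, 11.5 and 379, and was at least 5.09-fold higher in treated than in untreated p53-/- MEFs, taking the lowest signal called well above background on the untreated array as the bound. Against the brightest negative control spot of that array the fold was 1.18. For the interferon gene Ifnb1 the same bounds were 4.51 and 1.05, for Cxcl2 they were 2.66 and 0.615, and for Tlr3 they were 1.86 and 0.430. The cytokine genes Tnf, Il1b, Ccl20 and Csf2 were well above background on no array.

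The cell type was checked on marker lists. Of all probes, 57.5, 62.9, 56.9 and 58.4% were well above background on the 4 arrays, so a count of markers so flagged does not by itself show a cell type. Of 10 fibroblast markers 10 were well above background on every array, with summed levels of 83696, 68277, 68861 and 56312%, with Col1a2 as the brightest probe. Such sums add the signals of different probes and serve only to set arrays side by side. With doxorubicin 4 of the 10 fell in WT MEFs (Lum, Pdgfra, Pdgfrb and Dcn) and 2 in p53-/- MEFs (Lum and Pdgfrb). Of all genes, 10.4% fell 2-fold in WT MEFs and 6.89% in p53-/- MEFs. Leukocytes also express NF-kB target genes, and of 10 leukocyte markers 7, 8, 7 and 6 were well above background, with summed levels of 1597, 2010, 1801 and 1490%. Itgam was the brightest of them, and without it the sums were 331, 268, 293 and 320%. Itgam and Csf1r have 3 probes each and Adgre1 has 2, as have Krt5, Krt8 and Kdr below. Only the brightest probe of each was read, and the others were not compared. The treated p53-/- array was the one where Tnfaip3, Nfkbie, Nfkb2, Nfkbia and Relb were highest. On it Itgam stood at 1170%, Csf1r at 228%, Cd3e at 41.2%, Adgre1 at 21.9%, Cd74 at 17.3% and Ptprc at 4.31%, and Cd68 and Lyz2 were not well above background. Against the untreated p53-/- array the log2 ratio was 1.14 for Cd74, whose untreated signal (147) was below the brightest negative control spot there (250.1). It was 0.58 for Adgre1, and for the other 4 of these 6 it lay between -0.37 and 0.18. The Ptprc signals (65.3, 66.5, 71.6 and 104) were below the brightest negative control spot on every array. Cd79a, a subunit of the B cell receptor, was well above background on no array. Of 6 epithelial markers 3, 5, 3 and 4 were well above background and Epcam on none, with sums of 574, 1050, 537 and 1792%, with Krt18 as the brightest (474, 890, 444 and 1664%). Without Krt18 the sums were 99.8, 160, 93.4 and 128%, highest in treated WT MEFs. Krt14 (15.5, 45.2, 9.51 and 19.7%) was also highest there, and Krt5 was well above background on that array alone (52.3%), whereas Krt8 (79.7, 57.9, 77.5 and 96.5%) was lowest there and highest in treated p53-/- MEFs. Cdh1 (1.22, 3.09, 2.46 and 5.35%) was well above background on the treated arrays only, with the higher level in p53-/- MEFs, and its signal in treated WT MEFs (56.2) was below the brightest negative control spot there (77.46). Of 5 endothelial markers 3, 4, 2 and 3 were, with sums of 370, 449, 295 and 254%, with Kdr as the brightest, and Cdh5 was on none. Without Kdr they were 14.8, 39.9, 14.6 and 34.0%, higher on both treated arrays, a rise carried by Vwf (3.32, 28.1, 2.74 and 21.4%), while Pecam1 stood at 10, 6.51, 8.91 and 8.14%. For Vwf the ratio was 8.47-fold in WT MEFs, where its untreated signal (68.9) was below the brightest negative control spot of that array (108.3), and at least 6.97-fold in p53-/- MEFs, or 1.61-fold against the brightest negative control spot. On the untreated p53-/- array the signals of Krt14 (179) and Pecam1 (168) were below that spot as well (250.1). In such bulk RNA, fewer cells of a type and less RNA per cell cannot be told apart, and the part of these marker changes in the results was not tested.

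The same calls were made under other processing. None of the ratios of the 9 genes crossed 2-fold in any of 8 alternative settings of scaling, background correction, filter and probe choice. By construction, the 3 filters on dim probes and the deposited table could not change a ratio. Averaging of probes could change only the 3 genes with more than 1 probe. In p53-/- MEFs the log2 ratio of Tnfaip3 ran from 3.29 to 3.58 over all of these settings, that of Nfkbie from 2.72 to 3.02, that of Nfkb2 from 1.71 to 2.02, that of Nfkbia from 1.60 to 1.93 and that of Relb from 1.39 to 1.74.

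**Figure D5:**
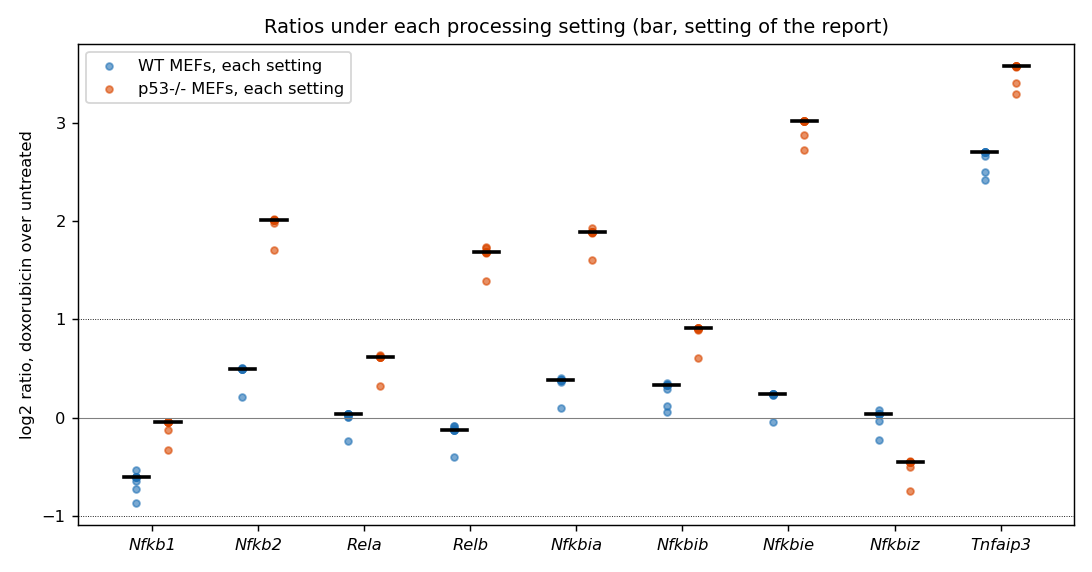
Log2 ratio of doxorubicin-treated over untreated MEFs for the 9 measured genes under the setting of the text and 8 alternatives (points), in WT (blue) and p53-/- MEFs (orange), with a bar at the value given in the text and dotted lines at 2-fold. The lowest points of most genes come from scaling to the array median, as for Tnfaip3 in p53-/- MEFs (3.29 beside 3.58), and no gene crosses a dotted line. Points of the 3 filters and of the deposited table lie on the bar by construction.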

How the data were processed

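Total RNA (200 ng per sample) was labeled with Cy3, hybridized to an Agilent mouse 4x44K v2 array and read by the authors with Feature Extraction (version 10.7.3.1, from the submitters' processing notes). The deposited spot intensity was background-subtracted and detrended within each array by that program and was not normalized between arrays. The deposited table of intensities for all arrays held the same values (largest relative difference 0). The deposited mean and local background intensity served 1 alternative, and the deposited flags marked outlier, saturated and well-above-background spots. Fold changes from the Subio Platform, which the methods name, were not used here.

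Of 43020 non-control spots per array, 162, 153, 145 and 168 outlier spots were left out, and 0 were saturated. Log2 intensities of a probe's spots were averaged, and each array was centred on its own 75th percentile (signals of 2074, 1819, 1881 and 2421). Each gene took the value of whichever of its probes was brightest on average. A ratio was measured where both arrays were well above background, and called from 2-fold. The lowest signals so flagged were 56.7, 44.3, 57.9 and 87.1, and the brightest of 153 negative controls read 108.3, 77.46, 250.1 and 119.7, so weak calls lie within reach of background. The number of arrays limits the precision. The error printed with a ratio is that of the software (0.20 to 0.27), and repeat spots of 244 probes with 10 spots gave an SD of 0.11 for a ratio. Neither covers the spread between cultures.

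Genes, lists and the rule for named genes were chosen with earlier results of these data known. That rule took the 10 genes, Trp53, Mdm2, Cdkn1a and Bax, from each list the 4 largest absolute ratios per genotype and the 3 largest differences, and the 5 genes nearest to the member of widest range. Of the listed symbols, 5 pathway genes and 1 marker were matched through RefSeq accessions and Bcl2a1a was not matched. Positions of probes were copied from the files (mm9), without exon or UTR annotation here, and promoter sequences are of RefSeq (GRCm38.p6). As alternatives, normexp (limma 3.58.1 in R 4.3.3, offset 50), quantile normalization, array-median scaling, 3 filters on dim probes, averaging of probes, the deposited table and thresholds of 1.5-fold and 3-fold were run. Python 3.11.15 was used for the rest, and the scripts were tested on simulated data.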

Additional observations from a re-analysis of the deposited data

Results flagged for a closer look

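In 4 of 48 genes named by the rule, doxorubicin moved the level at least 1.5-fold in opposite directions in the 2 genotypes. The 48 left out the genes nearest to Tnfaip3, which rose in both genotypes, and included Rel, which has no ratio. The difference of the log2 ratios (WT minus p53-/-) was -5.91 for Cxcl5, from -3.90 in WT and 2.01 in p53-/- MEFs. It was -3.54 for Traf1, from -0.85 and 2.69, and -3.44 for Nfkbid, from -0.82 and 2.61. For Birc3 it was -1.94, from -0.73 and 1.21. The directions were opposite in 8 of 8 alternative processing settings for Traf1, Nfkbid and Birc3, and in 7 of 7 that measured Cxcl5, whose signal in treated WT MEFs was below the brightest negative control spot. Each of these genes has 1 probe, so only array-median scaling, quantile normalization and normexp could change its ratios. The other settings returned the same ratios by construction. The difference was not tested for any of them, since each condition was 1 array. Among all genes measured on the 4 arrays 477 of 16538 (2.88%) met the same condition, which is not comparable with the 4 of 48, since the rule took genes for large differences. Of the NF-kB subunit and inhibitor genes 0 of the 9 measured did.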

How the results depend on the processing

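Under each of 8 alternatives of scaling, background, filter, probe and table, the counts of genes past 2-fold stayed at 1 (WT with doxorubicin), 5 (p53-/- with doxorubicin), 0 (untreated) and 6 (p53-/- against WT with doxorubicin). At 1.5-fold the counts were 2, 7, 2 and 7 of 9 in the same order, with 40.7, 35.3, 17.4 and 42.5% of all genes past that threshold in either direction. At 3-fold they were 1, 5, 0 and 4, with 9.25, 6.07, 0.970 and 10.1% of all genes. Scaling to the array median moved the median log2 ratio of the 9 genes to -0.04 in WT and to 1.39 in p53-/- MEFs, while the median of all genes moved to -0.27 and -0.30. Without a filter on dim probes, which added Rel, the median in p53-/- MEFs was 1.30, beside 0.26 for all genes. Of 36 ratios of single genes, 18 moved by more than the software's error with array-median scaling, 2 with normexp and 2 with the mean of probes, and 0 with the other 5 alternatives. Of those 5, the deposited table and the 3 filters could not change a ratio, and a filter could only change which genes were counted. Signs near 0 turned for Rela (-0.24), Nfkbie (-0.04) and Nfkbiz (-0.23) in WT MEFs with array-median scaling, for Nfkbiz there (-0.03) with quantile normalization, and for Nfkb1 between untreated genotypes with normexp (-0.20) and the mean of probes (-0.07). The slide as a block was not run because there was 1 slide. No paired analysis was possible because each condition was 1 array.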
